A study of Mus musculus with 4 samples.

Results

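The insulin receptor, its docking proteins, PI3K and Akt form the signalling chain that ends at the serine removed in these mice, and 9 of its genes were followed here: Insr, Igf1r, Irs1, Irs2, Pik3r1, Pik3ca, Akt1, Akt2 and Pdpk1. Members were named by symbol, and a probe set was taken for a gene where the platform annotation gave it that symbol and no other. This gave 29 probe sets for the 9 genes, out of 18193 genes measured on the array. The main value of a gene is its probe set with the highest mean over all arrays. Hearts came from wild-type mice aged 3.6 months and from mice aged 3.5 months whose GSK-3beta carries the S9A replacement, all of strain C57B6 and all at baseline. Each group had 2 arrays. Nothing in the labels tells whether each array holds 1 animal or pooled hearts, which sex the mice were or at what hour hearts were taken. Values are log2 expression, so a difference of 1 is a doubling.

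Insulin and insulin-like growth factor 1 bind receptor tyrosine kinases, which phosphorylate the insulin receptor substrates. Phosphorylated IRS proteins recruit class I PI3K, whose lipid product brings Akt and its activating kinase PDK1 to the membrane. Akt then phosphorylates, among many targets, the amino-terminal serine of each GSK-3 isoform and so inhibits it. In heart muscle the pathway drives glucose uptake, glycogen synthesis, protein synthesis and physiological growth. The replacement of serine 9 by alanine leaves GSK-3beta unable to receive this inhibitory phosphate, so the genes described here lie upstream of the altered residue. An expression array measures their transcripts and not the phosphorylation through which they signal.

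All 8 cardiomyocyte markers were bright, from 12.95 for the calcium release channel Ryr2 to 14.75 for the myosin light chain Myl2 over the arrays. All 8 were higher in the mean in knock-in hearts, by at most 0.09, and 4 were higher in both knock-in arrays. None had an unadjusted p under 0.05 from limma. The targeted gene Gsk3b read 9.62 and 9.72 in wild-type and 9.82 and 9.87 in knock-in hearts, a level that does not show which residue is at position 9 of the protein. Hepatocyte markers stood apart between the groups: all 10 were higher in both knock-in arrays, as were 19.6% of all genes. The median level of the 10 was 6.57 and 6.10 in the wild-type and 7.06 and 7.61 in the knock-in arrays. Of the 10, 9 were higher at an unadjusted limma p under 0.05, beside 4.4% of all genes. Of 5 adipocyte markers, Car3 and Adipoq were higher in both knock-in arrays and the other 3 overlapped. Of the smooth muscle markers, Acta2 and Cnn1 were lower in both knock-in arrays, whereas Myh11 overlapped. Among macrophage markers 3 of 4 were higher in both knock-in arrays, as were 2 of 6 fibroblast, 1 of 5 endothelial and 1 of 4 skeletal muscle markers. The rest of these and both erythrocyte markers overlapped. No marker of these last types, from macrophage to erythrocyte, had an unadjusted limma p under 0.05. The part of these shifts in the differences below was not tested. In RNA from whole tissue, fewer cells of a type and less RNA per cell cannot be told apart.

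Irs1 had the largest difference of the 9 genes, 1.51-fold lower in knock-in hearts, and none of the 9 passed the test across all genes. Only Irs1 had an unadjusted limma p under 0.05, 1 of 9 where 7.39% of all genes had one in either direction and 2.99% in the lower direction. The other 8 differences lay between -0.21 and 0.20. The arrays of the 2 groups did not overlap for 4 of the 9, Insr upward and Igf1r, Irs1 and Pik3ca downward, where 36.5% of all genes did not overlap (19.6% higher and 17.0% lower). The median difference of the 9 was -0.12, beside 0.00024 over all genes. Adjustment is Benjamini-Hochberg over all genes throughout, and 0.0055% of genes, a single gene, passed at 0.05.

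**Figure D1:**
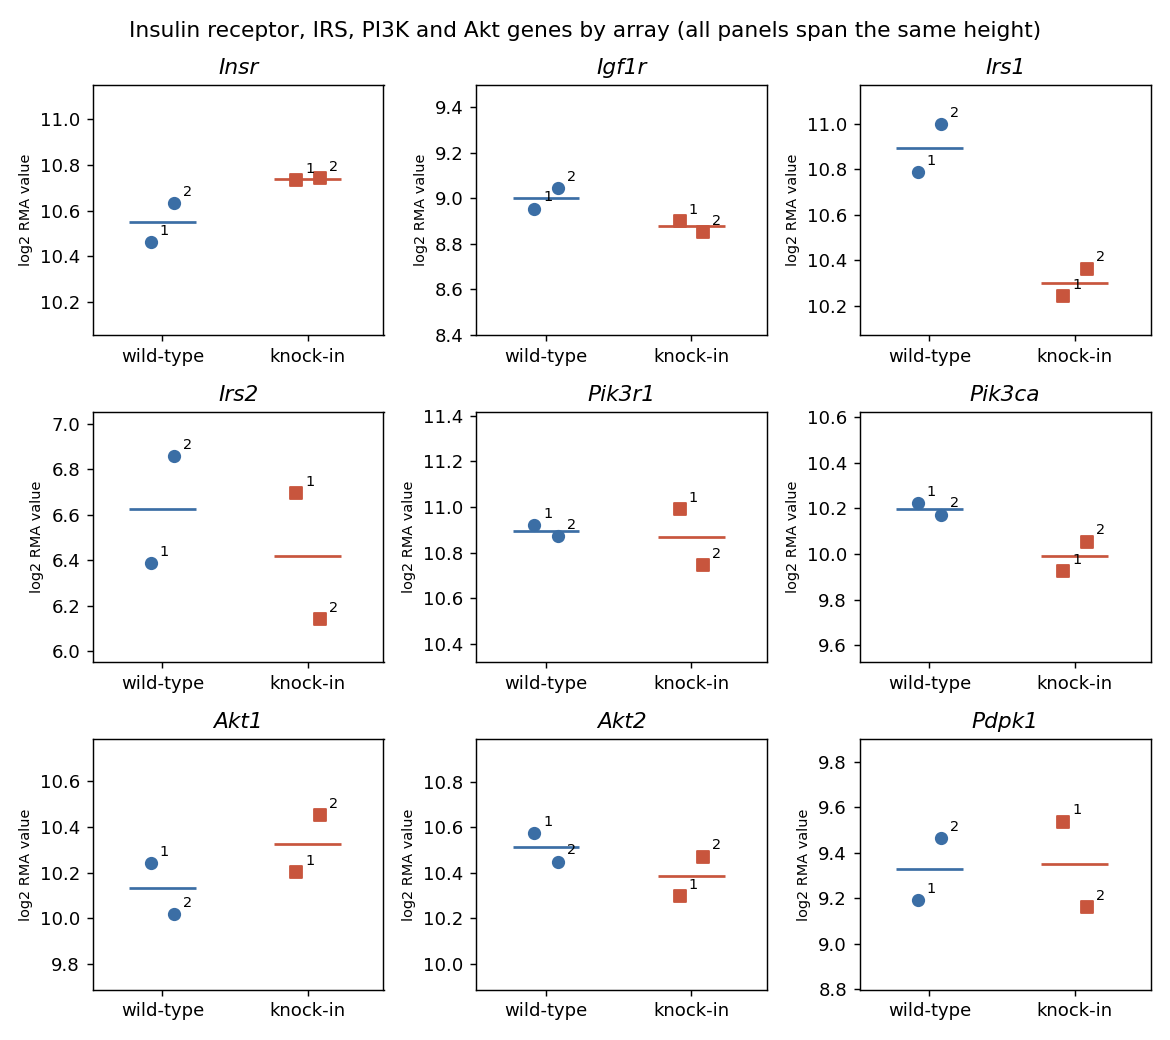
Log2 RMA value of each of the 9 genes on the 4 arrays, taken from its brightest probe set, with wild-type arrays as circles, knock-in arrays as squares, the replicate number beside each point and a horizontal line at each group mean; all panels span the same height. Irs1 at 10.79 and 11.00 against 10.24 and 10.36 is the panel with the widest gap between groups. For Irs2, Pik3r1, Akt1 and Pdpk1 the arrays of each group differ by more than the group means do.

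Insr encodes the insulin receptor. Its brightest probe set read 10.46 and 10.63 in wild-type and 10.73 and 10.74 in knock-in hearts. Both knock-in arrays were the higher ones, by 0.19 with a 95% confidence interval from -0.07 to 0.45 (limma adjusted p = 0.759). The remaining probe sets of Insr were dim and did not share this direction: one read 6.04 and 5.91 against 5.81 and 5.81, lower in both knock-in arrays, and the other overlapped with a difference of 0.05. The difference of Insr was 0.03 when its 3 probe sets were averaged and -0.17 with the probe set listed first. It was 0.23 with each array centred on its median and 0.14 with quantile normalization. With 1 array left out it ran from 0.10 without wild-type replicate 1 to 0.28 without wild-type replicate 2.

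Igf1r encodes the receptor for insulin-like growth factor 1, a close relative of the insulin receptor that shares its substrates. It read 8.96 and 9.04 in wild-type and 8.90 and 8.85 in knock-in hearts. The knock-in arrays were the lower ones by a narrow margin, with a difference of -0.12 (interval -0.36 to 0.11, limma adjusted p = 0.842). Of its 5 probe sets, 4 were lower in the mean, and the 2 whose groups lay apart were both lower, at -0.12 each. The difference of Igf1r was negative under each of the 11 alternatives tried, from -0.17 to -0.04. Most of these could not turn its sign. The groups of its brightest probe set lie apart, which fixes the sign with 1 array left out. The replicate block, trend with robust prior and genes above the median leave the difference as it was. No fit of all 4 arrays took Igf1r past the threshold.

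Irs1 encodes insulin receptor substrate 1, the docking protein that couples the activated receptor to PI3K. It read 10.79 and 11.00 in wild-type and 10.24 and 10.36 in knock-in hearts, or 10.89 ± 0.15 against 10.30 ± 0.09 (mean ± SD, n = 2). The groups did not overlap, and the 0.42 between the higher knock-in and the lower wild-type array exceeded the 0.21 and 0.12 between arrays of one group. The difference was -0.59 with an SE of 0.12 and a 95% interval from -0.87 to -0.31. The limma p was 0.00201 before and 0.312 after adjustment, and the adjusted p ran from 0.0938 to 1 over the 11 alternatives, none of which took Irs1 past the threshold. By p Irs1 ranked 117 of 18193 genes, and 74 genes (0.407%) had a difference as low or lower. Among the 1820 brightest genes, to which Irs1 belongs, 13 were as low or lower. With 1 array left out, the difference ran from -0.70 without wild-type replicate 1 to -0.48 without wild-type replicate 2. It was -0.53 without knock-in replicate 1 and -0.65 without knock-in replicate 2. As the groups do not overlap, no such fit could turn its sign. The difference was -0.55 with each array centred on its median, -0.64 with quantile normalization, and unchanged under the other settings. A single probe set represents Irs1, so no other probe set can be set beside it. The hepatocyte marker Alb, at 7.01 and 5.54 in the wild-type and 8.58 and 9.66 in the knock-in arrays, moved with the groups in the opposite direction to Irs1, and its part in the Irs1 difference was not tested.

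Irs2 encodes the second widely expressed substrate, whose transcript is known to be raised by FoxO factors when insulin is low. It read 6.39 and 6.86 in wild-type and 6.69 and 6.14 in knock-in hearts. The groups overlapped in part, with the highest array a wild-type and the lowest a knock-in one, and the spread between arrays of one group (SD 0.33 and 0.39) was wider than the difference of -0.21. The within-group SD of Irs2 stood at percentile 98.7 of all genes, the highest of the 9, and its interval from -0.75 to 0.34 (limma adjusted p = 0.906) includes the difference seen for Irs1. Whether the 2 substrates differ in their response was not tested. Irs2 was also the only one of the 9 genes dimmer than the median gene (percentile 41.8 by mean level), and RMA gives no call of whether a dim transcript is detected.

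The promoters of Irs1 and Irs2 are shown because the substrates gave the largest difference of the 9 genes and the largest spread, and because each holds 1 copy of the E-box CACGTG, the element bound by BMAL1-CLOCK, USF and related factors. Both are the 250 bases before the start site in RefSeq (GRCm38.p6), on the minus strand and written 5′ to 3′, with the E-box in capitals. Irs1 lies at chr1:82291440-82291689 and Irs2 at chr8:11008930-11009179.
Irs1: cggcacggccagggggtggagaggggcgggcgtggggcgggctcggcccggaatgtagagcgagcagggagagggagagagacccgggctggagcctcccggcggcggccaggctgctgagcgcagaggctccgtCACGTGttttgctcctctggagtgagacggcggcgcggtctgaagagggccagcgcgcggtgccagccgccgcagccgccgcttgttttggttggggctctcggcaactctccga
Irs2: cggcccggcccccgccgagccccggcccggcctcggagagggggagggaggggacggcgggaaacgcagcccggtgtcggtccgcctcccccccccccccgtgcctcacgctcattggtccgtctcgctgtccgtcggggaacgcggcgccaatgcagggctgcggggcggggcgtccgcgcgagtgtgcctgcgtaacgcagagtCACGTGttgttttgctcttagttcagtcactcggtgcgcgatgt
The E-box ended 109 bases before the start site in Irs1 and 38 bases before it in Irs2. The longest runs of letters common to both promoters were 2 of 10 bases, gtCACGTGtt around the E-box and tgttttgctc downstream, which in Irs1 overlaps the end of the E-box. RefSeq held 14 promoters (300 bases each, reaching 50 bases past the start) for 8 of the 9 genes, all but Insr, and those of Irs1 and Irs2 were the ones with CACGTG. This palindrome was found in 7.15% of all 32851 promoters and in 10.4% of those with at least 70% G and C. The FoxO element was searched on both strands in the form GTAAACA only. It was in 1 of the 14, a promoter of Akt1. Among all promoters 3.65% held it, and 1.18% of those with at least 70% G and C. Other forms of the element were not searched, also not in Irs1 and Irs2. A match is a string of letters and not a measured binding site.

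Pik3r1 encodes p85alpha, the regulatory subunit that docks PI3K onto IRS proteins. Its brightest probe set read 10.92 and 10.87 in wild-type and 10.99 and 10.74 in knock-in hearts. The groups overlapped, with a difference of -0.03 (interval -0.31 to 0.25, limma adjusted p = 0.989), so a shift larger than about 1.24-fold lower or 1.19-fold higher lies outside the interval. All 4 of its probe sets were lower in the mean in knock-in hearts, by up to 0.23, and in 1 of them the groups lay apart. That of the brightest turned to 0.00920 with each array centred on its median.

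Pik3ca encodes p110alpha, the catalytic subunit that makes the lipid signal downstream of the insulin receptor in heart. Its brightest probe set read 10.22 and 10.17 in wild-type and 9.92 and 10.05 in knock-in hearts. Both knock-in arrays were lower, by 1.15-fold, with a difference of -0.21 and an interval from -0.45 to 0.04 (limma adjusted p = 0.723). Its unadjusted p was 0.0851, the smallest after Irs1, and 0.0486 after quantile normalization. The second brightest probe set read 9.36 and 9.44 against 9.20 and 9.47, which overlap. Of the 4 dim ones, 3 had a positive difference, opposite to the brightest. One read 5.09 and 5.25 in wild-type and 5.37 and 5.25 in knock-in hearts, both knock-in arrays just above both wild-type arrays, with a difference of 0.14. The other 2 differed by 0.43 and 0.38, with wild-type replicate 1 far below the rest. In these 2 probe sets that array read 5.46 and 5.14, whereas the other 3 arrays read 5.98 to 6.48. One of them has the suffix x, which the manufacturer gives to probe sets that may also bind unrelated transcripts. Averaging all 6 probe sets turned the difference of Pik3ca to 0.10.

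Pdpk1 encodes PDK1, which phosphorylates Akt in its activation loop. It read 9.19 and 9.47 in wild-type and 9.54 and 9.16 in knock-in hearts. Each group held one high and one low array, and the difference was 0.02 (interval -0.37 to 0.41, limma adjusted p = 0.998). Its other probe set showed the same overlap around a difference of -0.23. The within-group SD of Pdpk1 was at percentile 91.4 of all genes, and the sign of its difference turned under 4 of 11 alternatives.

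Akt1 and Akt2 encode the kinases that phosphorylate GSK-3, Akt1 being tied mainly to growth and Akt2 to glucose uptake. Akt1 read 10.24 and 10.02 in wild-type and 10.20 and 10.45 in knock-in hearts. Its groups overlapped, with a difference of 0.20 (interval -0.13 to 0.52, limma adjusted p = 0.807), and its other 3 probe sets differed by -0.13 to -0.03. With 1 array left out it ran from 0.07 without knock-in replicate 2 and 0.08 without wild-type replicate 2 to 0.31 without wild-type replicate 1 and 0.32 without knock-in replicate 1. Akt2 read 10.57 and 10.45 in wild-type and 10.30 and 10.47 in knock-in hearts. These also overlapped, with a difference of -0.13 (interval -0.40 to 0.14, limma adjusted p = 0.865), which was -0.04 without knock-in replicate 1 and -0.21 without knock-in replicate 2. The brightest Akt2 probe set has the suffix s, given to probe sets shared by several transcripts. A dimmer one read 7.02 and 7.08 against 6.85 and 6.86, lower in both knock-in arrays. The remaining one read 6.904 and 6.921 against 6.924 and 6.964, higher in both knock-in arrays, with a difference of 0.03. The opposite signs of Akt1 and Akt2 were not tested against each other, and averaging the probe sets brought Akt1 to -0.0126.

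**Figure D2:**
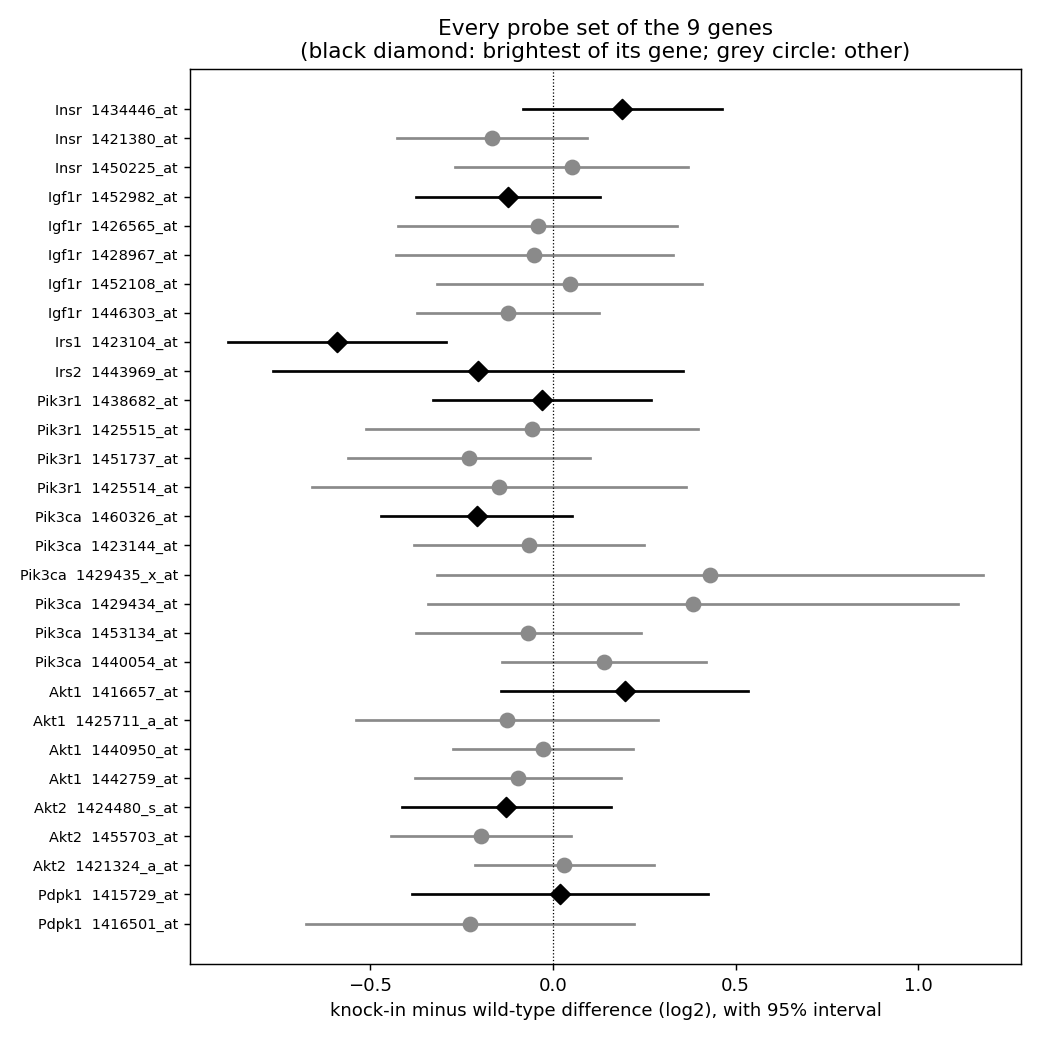
Knock-in minus wild-type difference (log2, horizontal axis) of all 29 probe sets with the 95% interval from limma fitted over all probe sets; black diamonds mark the brightest probe set of a gene and grey circles the others. The interval of Irs1 (-0.89 to -0.29) is the one that excludes 0, and the widest are those of 2 dim Pik3ca probe sets.

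Across the 29 probe sets, 9 were higher and 20 lower in the mean in knock-in hearts. The groups lay apart in 10 of them (3 higher and 7 lower), where 33.9% of all 45037 probe sets other than controls were apart (15.7% higher and 18.2% lower). When all of these probe sets were fitted together with limma none of the 29 passed (0.0% of all probe sets did), and 1, that of Irs1, had an unadjusted p under 0.05, as did 5.84% of all. Probe sets of one gene read the same RNA and are not replicates.

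The genes whose 4 array values ran most like those of Irs1 were the organic anion transporter Slco3a1, the haem synthesis enzyme Cpox and the membrane metalloproteinase Mmp14. After each gene was centred on its own mean, their values differed from those of Irs1 by 0.0262, 0.0320 and 0.0339 (root mean square, log2, over 4 arrays). They were lower in knock-in hearts by 0.55, 0.53 and 0.52, and none passed. With 4 arrays, likeness of this kind is a description of these arrays.

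Outside the 9 genes, 65 others of the pathway, listed by role, were measured. Of the 65, none passed adjusted over all genes, 3 were higher and 3 lower at an unadjusted limma p under 0.05 (all genes 4.4% and 2.99%), and 32 were higher, 32 lower and 1 equal in the mean. In 30 of the 65 (46.2%) the groups lay apart, beside 36.5% of all genes, and the median difference was 0.

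Among ligands and binding proteins Igf2, a fetal growth factor, read 8.87 and 8.81 in wild-type and 8.55 and 8.56 in knock-in hearts. It was lower in both knock-in arrays by 0.29 (unadjusted p = 0.0227, limma adjusted p = 0.562), whereas a dim second probe set of Igf2 differed by 0. The binding protein Igfbp2 differed by 0.21. Among the other receptors Igf2r, which clears Igf2, differed by 0.14 and the orphan receptor Insrr by 0.05. Among the other adaptors the Ras exchange factor Sos1 differed by -0.12 and Shc1 by 0.13, and no member of these last 2 roles had an unadjusted p under 0.05.

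The 6 measured brakes on the receptor and IRS proteins included Socs3, which binds the receptor and promotes the degradation of IRS proteins. Socs3 read 7.99 and 8.30 in wild-type and 7.55 and 7.65 in knock-in hearts. Like Irs1 it was lower in both knock-in arrays, by 0.54 or 1.46-fold, with an interval from -0.86 to -0.22 (unadjusted p = 0.00561, limma adjusted p = 0.395). With averaged probe sets the difference of Socs3 was -0.39. Grb14, an adaptor that inhibits the insulin receptor kinase, went the other way, at 11.48 and 11.30 against 11.61 and 11.66, with a difference of 0.24 and an adjusted p of 0.697 from limma.

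None of the 8 other PI3K subunits and regulators had an unadjusted p under 0.05, the smallest being those of Pik3r5 (-0.24), a regulatory subunit of the p110gamma enzyme, and Pik3ip1 (0.30), a membrane inhibitor of PI3K. That of Pik3ip1 was 0.07 without wild-type replicate 2, 0.52 without wild-type replicate 1 and 0.03 with averaged probe sets. Of the 10 measured lipid phosphatases and Akt brakes, Inppl1 was the one with an unadjusted limma p under 0.05, as had 7.39% of all genes. The groups did not overlap in 5 of the 10, beside 36.5% of all genes. Over the roles this ran from 1 of 7 other adaptors (14.3%) to 6 of 9 ligands and binding proteins (66.7%). Inppl1 encodes SHIP2, which removes the 5-phosphate from the PI3K product. Inppl1 read 10.89 and 10.89 in wild-type and 11.21 and 11.32 in knock-in hearts. Both knock-in arrays were higher, by 0.37, with an interval from 0.14 to 0.61 (unadjusted p = 0.00835, limma adjusted p = 0.430). Inpp4a, which acts on the next lipid in that breakdown, differed by -0.23. Of 4 measured genes of the mTORC2 complex, which phosphorylates Akt in its tail, Mtor (0.21) and Mapkap1 (0.15) had the smallest p and neither was under 0.05.

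Of 19 measured Akt substrates and targets, 2 were higher and 1 lower at an unadjusted limma p under 0.05. Over all genes 4.4% were higher and 2.99% lower at that p. Tbc1d4 encodes AS160, the Akt substrate that holds the glucose transporter GLUT4 inside the cell until it is phosphorylated. Tbc1d4 read 10.12 and 10.33 in wild-type and 9.79 and 9.95 in knock-in hearts, lower in both knock-in arrays by 0.36 (unadjusted p = 0.0239, limma adjusted p = 0.563). Slc2a4, which encodes GLUT4 itself, read 11.70 and 11.52 against 11.84 and 11.92, higher by 0.27 (unadjusted p = 0.0466, limma adjusted p = 0.662). The heart phosphofructokinase activator Pfkfb2 read 8.71 and 8.51 against 9.42 and 9.18, higher by 0.69, with the smallest adjusted p of the 65 at 0.281 from limma. With averaged probe sets the difference was smaller for Slc2a4 (0.13) and Pfkfb2 (0.41) and larger in size for Tbc1d4 (-0.41).

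**Figure D3:**
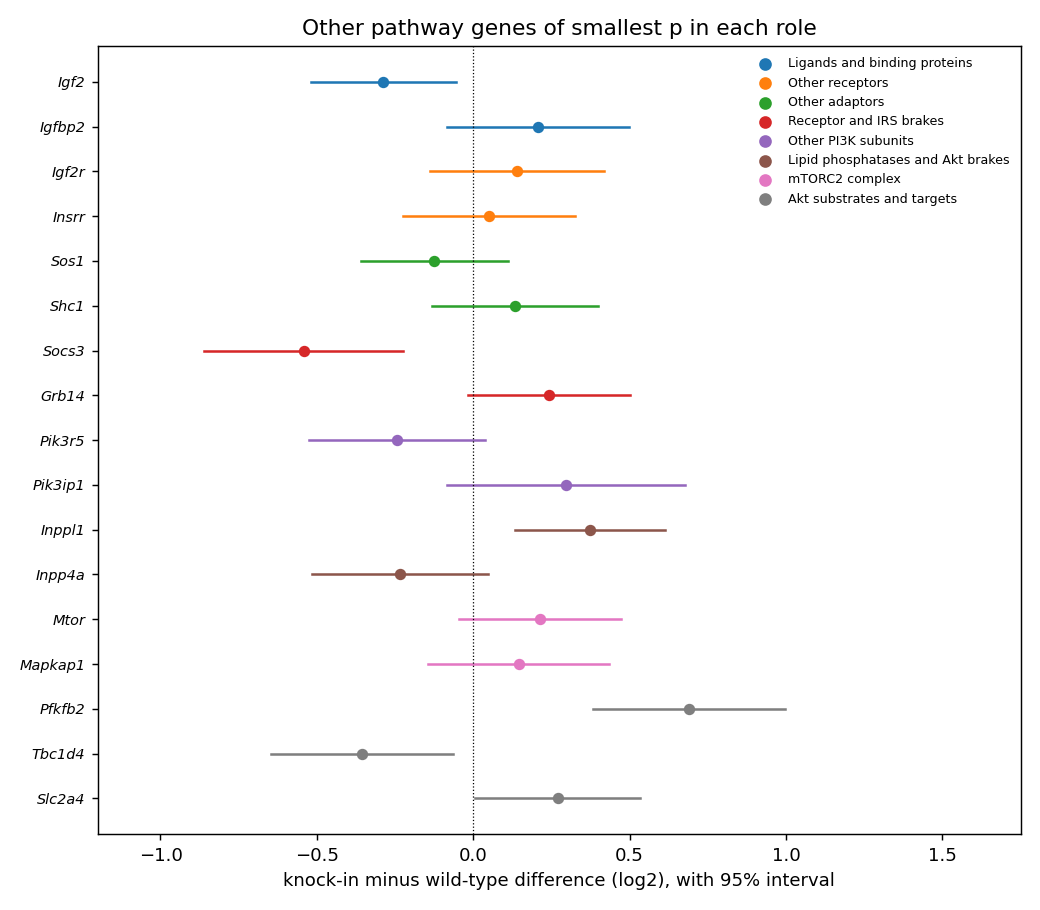
Knock-in minus wild-type difference (log2, horizontal axis) with its 95% interval from limma for the 17 other pathway genes named by the rule, coloured by role; they were selected for small p within their role. Intervals exclude 0 for Igf2, Socs3 and Tbc1d4 on the lower side and for Inppl1, Pfkfb2 and Slc2a4 on the higher side, and none of the 17 passed adjusted over all genes.

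**Figure D4:**
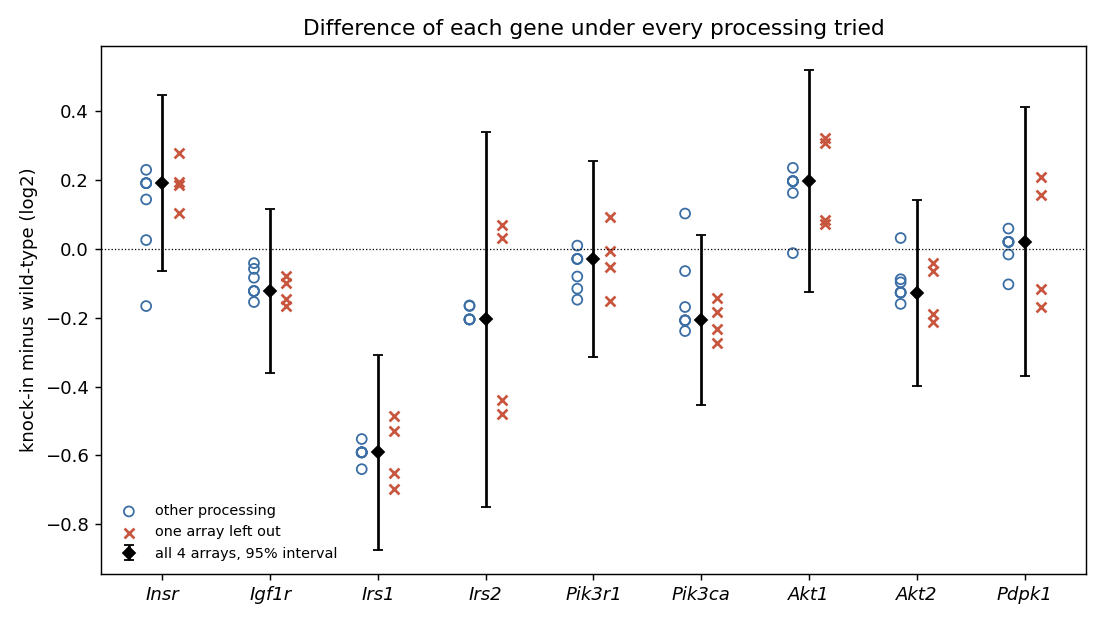
Knock-in minus wild-type difference (log2, vertical axis) of each of the 9 genes with all arrays and its 95% interval (diamond), under other processing (open circles) and with 1 array left out (crosses). Irs1 stays between -0.70 and -0.48 and Igf1r between -0.17 and -0.04, whereas the other 7 genes cross 0 under at least 1 setting. Leaving out 1 array could not turn the sign of Irs1, Igf1r, Insr or Pik3ca, whose groups do not overlap. Averaged and first probe sets could not turn that of Irs1, which has 1 probe set. The replicate block, trend with robust prior and genes above the median leave each difference they give as it was. The contrast of Irs1 with the other genes is thus in part fixed by these settings.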

How the data were processed

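Heart RNA was measured on Affymetrix 3' expression arrays, 2 wild-type and 2 GSK-3beta S9A knock-in. Per the submitters' processing notes, the authors made the deposited log2 values with RMA in Affymetrix Expression Console (version not given in the sources used here). The titles name the wild-type arrays as controls for beta, and they were compared here only with the knock-in arrays. Which arrays shared the RMA run is not given in those titles. Of 45101 probe sets, 64 were controls, 34945 had 1 gene symbol, 932 several and 9160 none. A RefSeq table of GRCm38.p6 gave current symbols by Entrez identifier for 34741 of them. Each gene was its probe set of highest mean, with no filter on dim probe sets.

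A linear model per gene, moderated without trend or robust prior (limma 3.58.1, R 4.3.3), gave two-sided p-values, adjusted by Benjamini-Hochberg across the 18193 genes. The script was tested on simulated data. The spread behind these p-values is that between arrays of a group, possibly technical, drawn by the moderation toward the spread of all genes. Of 6.29 degrees of freedom, 4.29 came from this prior over all genes. The number of arrays limits the precision. Some listed pathway genes are not reported here. The members and lists were chosen with earlier results of these data known. Pathway genes were named where p was under 0.05 or among the 2 smallest of their role, and for members apart between groups by at least 0.3 the 3 genes most alike were named. Igf2 was looked at in its second probe set after its values were seen, as was the runs of letters that both IRS promoters share. The alternatives tried were a block for replicate number, trend with robust prior, centring, quantile normalization, genes above the median, averaged or first probe sets, and each array left out. Same-numbered arrays did not deviate together (Pearson's r over genes of -0.03).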

Additional observations from a re-analysis of the deposited data

How the results depend on the processing

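The call of no member, of no probe set of the 9 genes and of none of the 65 other pathway genes held under each alternative run for it. Over all genes 0 passed with the replicate block, 22 with trend and robust prior, 11 with centring, 11 with quantile normalization, 7 among genes above the median, 11 with averaged and 0 with first probe sets, and 0 without any 1 array (lowest and highest 0). The replicate block is an unpaired number in these labels. It left all differences as they were and the adjusted limma p of Irs1 at 0.709. Trend with robust prior and genes above the median also left each difference as it was, so none of these could turn a sign. Averaged and first probe sets could not for Irs1 and Irs2, which have 1 probe set each. Leaving out 1 array could not where the groups do not overlap. Of 98 differences of the 9 genes under alternatives, 86 kept their sign. Those that turned were Insr (-0.17) and Akt2 (0.0313) with the first probe set, Pik3ca (0.10), Akt1 (-0.0126) and Pdpk1 (-0.10) with averaged probe sets, Pik3r1 with centring (0.00920), as its brightest probe set did in the fit over probe sets, and Pdpk1 with quantile normalization (-0.0166). With 1 array left out, Irs2 ran from -0.48 (without knock-in replicate 1) to 0.0700 (without knock-in replicate 2) and was also positive without wild-type replicate 2. Over the same fits Pik3r1 ran from -0.15 to 0.0929, Pdpk1 from -0.17 to 0.21 and the named pathway gene Insrr from -0.0597 to 0.16, in each case the lowest without knock-in replicate 1 and the highest without knock-in replicate 2. Pdpk1 was also negative without wild-type replicate 1. An Akt1 probe set turned to 0.0117 with centring. Of the named pathway genes, Igf2r became -0.0154 with averaged probe sets, and Sos1 0.0551 and Shc1 -0.13 with the first probe set.

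At an unadjusted limma p under 0.05, 2 members were counted with quantile normalization (Irs1 and Pik3ca) and 1 under the other alternatives. The 3 other pathway genes higher became 6 with centring, and with 1 array left out ran from 1 (without knock-in replicate 2) to 8 (without wild-type replicate 1). The 3 lower became 5 with quantile normalization and 1 with averaged probe sets, and ran from 2 (without knock-in replicate 1) to 5 (without wild-type replicate 2). Over all genes at that p, 59.5% were higher, and 74.5% with centring, which moved the median of all genes to 0.04. Fits on 3 arrays take the spread of the group with 1 array from the other group. Genes above the median gave no value for Irs2, which is dimmer. The cause of these shifts was not tested.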
